A study of Mus musculus with 4 samples.

Results

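The small leucine-rich proteoglycan (SLRP) genes Dcn, Bgn, Aspn, Lum, Fmod, Prelp, Omd and Ogn were examined in single myogenic progenitor (MP) preparations from regenerating mouse muscle. They are 8 of the 25827 genes listed in the count tables, found by their symbols. The family was chosen on measured values, because Aspn over all cells and Dcn in cycling cells had leaned higher in both knockout libraries, so its values between the genotypes are given below as a description without a test. The comparisons between cell classes did not use that contrast and were tested. Tibialis anterior muscle was injured with cardiotoxin, a snake venom toxin that destroys muscle fibres, in 12-week-old male mice and was collected on day 6. Pax7Cre animals, which carry Cre recombinase under the control of the Pax7 gene, served as controls, and the other group carried Pax7Cre together with a floxed miR-501 gene (miR-501KO), an allele made in C57BL/6 cells. The gene lies on the X chromosome, so males carry 1 copy. Both groups thus carry Cre, and since Pax7 marks muscle stem cells, the deletion was aimed at the myogenic lineage and not at fibroblasts, pericytes, glia or macrophages. Cells were sorted as positive for alpha7-integrin and negative for CD45, CD31 and Sca1, and Sca1 exclusion removes most fibro-adipogenic progenitors. Each of the 4 libraries pooled 3 mice, and 2 libraries were made per group, 1 in each of 2 runs. Tests therefore measure the spread between libraries, and no value per mouse exists. The gene table holds 0 rows for Mir501, so the deletion itself could not be checked in these counts.

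SLRPs are secreted proteins built around a horseshoe of leucine-rich repeats, and most of them carry chondroitin, dermatan or keratan sulphate chains. They bind the surface of collagen fibrils and set how fibrils grow and pack in tendon, dermis, cornea and muscle connective tissue. Several also bind growth factors, above all TGFβ, and in muscle decorin is known as an inhibitor of TGFβ and myostatin. Decorin (Dcn), biglycan (Bgn) and asporin (Aspn) form class I, lumican (Lum), fibromodulin (Fmod), PRELP (Prelp) and osteomodulin (Omd) form class II, and osteoglycin or mimecan (Ogn) belongs to class III. In muscle they are known mainly as products of fibroblasts and tendon cells, and the sort was meant to leave these cells out.

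Of 16519 barcodes, 10450 had at least 5000 unique molecular identifiers (UMIs, 1 per captured RNA molecule) and at least 1000 genes. The libraries held 1829 to 3439 such cells with a median of 25254 to 34579 UMIs per cell, and 73665012 to 117527749 UMIs over all barcodes. Among them, 10 barcode sequences occurred in the kept cells of more than 1 library. Clusters were built without the 8 SLRP genes and named from marker lists that hold none of them, although many genes used for clustering move with the family. MP-like cells comprised quiescent-like cells (Pax7, Chodl, Calcr; 491 to 687 per library), cycling-like cells (446 to 954) and committed-like cells (Myog and muscle structural genes; 274 to 601). The sort label was myogenic progenitor, yet the libraries also held macrophage-like cells (50 to 110), mural-like cells with pericyte and smooth muscle markers (22 to 116), Schwann-like cells (23 to 75) and fibroblast/tenocyte-like cells (11 to 94). One unnamed cluster of 1890 cells led by Spp1 and Ass1 (cluster 2) came from all 4 libraries, and 1 of 659 cells (cluster 6) came from miR-501KO 1 alone. The fibroblast/tenocyte-like class of miR-501KO 2 stood apart: 67 of its 94 cells had under 10000 UMIs, against 1, 1 and 0 cells in Pax7Cre 1, Pax7Cre 2 and miR-501KO 1. Levels below are UMIs of a gene scaled to 1000000 UMIs of a class (CPM), which do not correct for gene length, so each gene is compared with itself across classes.

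Among the 7 named classes, fibroblast/tenocyte-like cells had the highest mean level of 7 of the 8 members. All 8 members entered the test against MP-like cells, and 7 were higher (edgeR quasi-likelihood test with Benjamini-Hochberg adjustment over all genes), where 18.0% of the 13526 genes tested were higher. Lum and Fmod did not reach the filter on low counts in each MP-like sum and entered through the fibroblast/tenocyte-like sums, which fixes their direction, and of the other 6 members 5 were higher. With no filter 7 of 8 were again higher, where 13.6% of 19738 genes were, and the median log2 fold change of the 8 was 5.98, beside -0.35 over all genes. Against mural-like cells 7 of the 7 members tested were higher, with 16.4% of all genes higher, and against Schwann-like cells it was again 7 of 7, with 18.4% of all genes higher. In these comparisons only Aspn and Bgn reached the filter in each mural-like sum and only Bgn in each Schwann-like sum. With no filter 8 of 8 members were higher against mural-like cells, where 10.2% of all genes were, and 8 of 8 against Schwann-like cells, where 13.3% were. Prelp was the exception against MP-like cells and is described with its own values below.

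**Figure D1:**
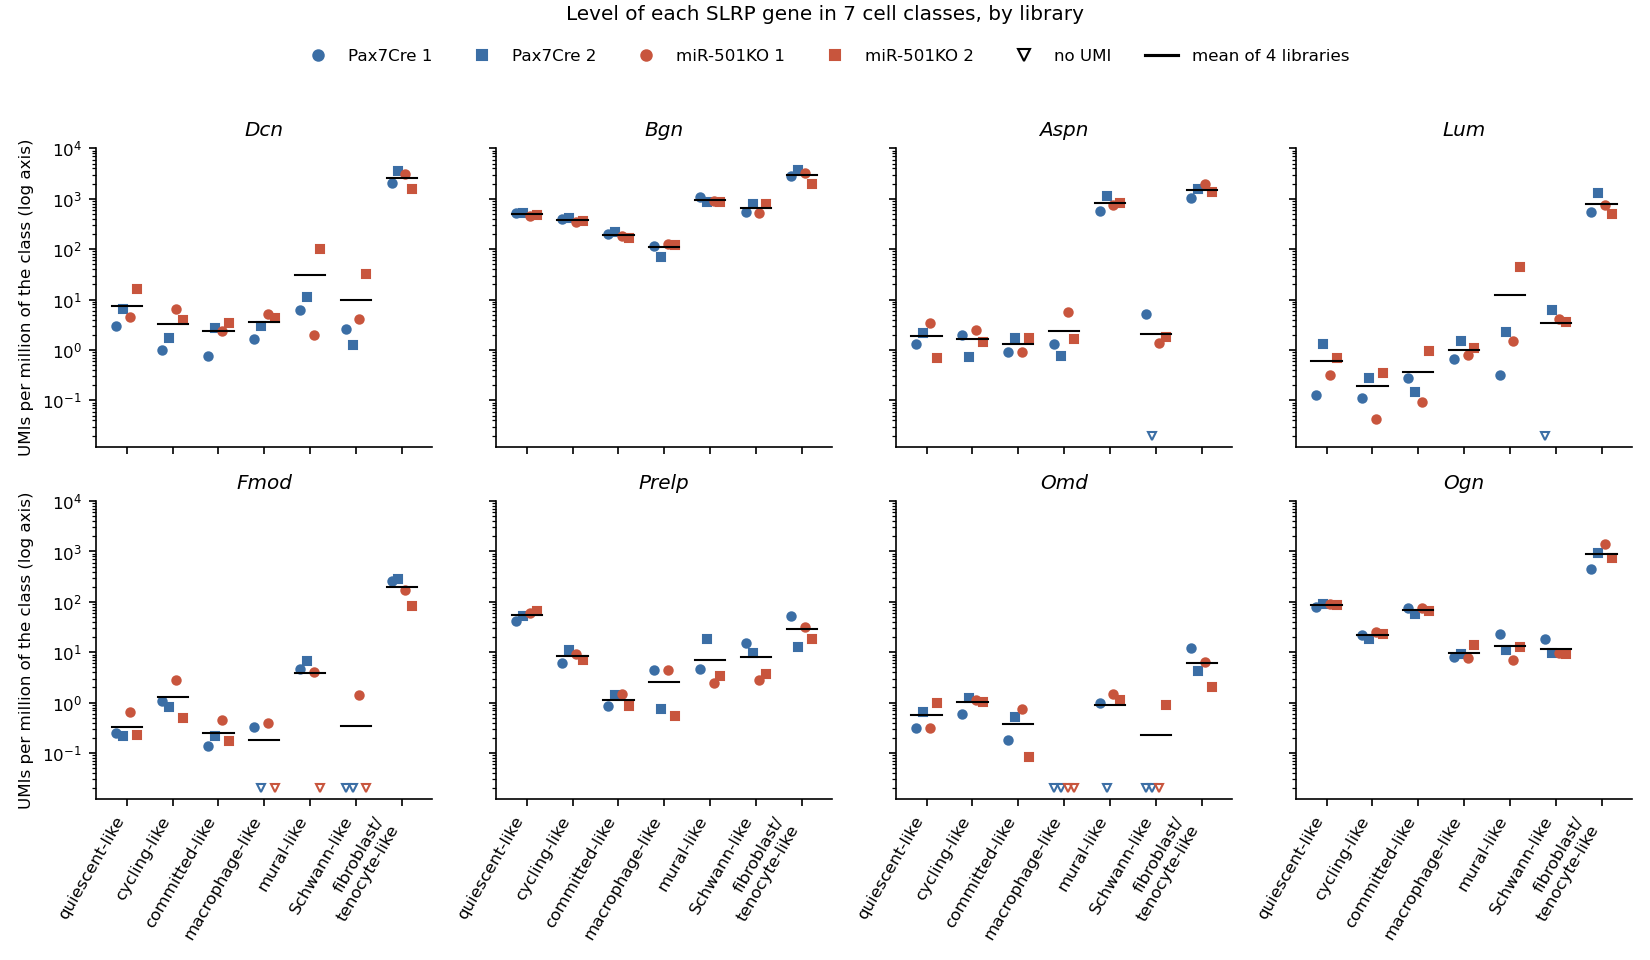
CPM in each class (log axis) of the 8 SLRP genes in 7 cell classes. Blue marks are Pax7Cre and red marks miR-501KO libraries, circles replicate 1, squares replicate 2, open triangles libraries with no UMI, and black lines the mean of 4 libraries. Dcn, Lum and Fmod stand out in fibroblast/tenocyte-like cells, Aspn also in mural-like cells, Bgn is well counted in each class, and Prelp is highest in quiescent-like cells.

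Decorin, the best studied member, showed the sharpest division between classes together with lumican. In fibroblast/tenocyte-like cells Dcn reached 2014 CPM in Pax7Cre 1, 3541 in Pax7Cre 2, 3119 in miR-501KO 1 and 1559 in miR-501KO 2. In MP-like cells it was counted at 1.31, 3.24, 4.98 and 6.78 CPM in the same order. The ranges lie far apart, and the log2 fold change was 9.39 (SE 0.41, edgeR adjusted p = 6.72e-10). After thinning each cell to 5000 UMIs, Dcn was found in 89.5%, 100%, 94.4% and 58.5% of fibroblast/tenocyte-like cells, and unthinned in 100%, 100%, 94.4% and 63.8%. Macrophage-like cells, which are not known to make decorin, gave a reference level, although free RNA in the droplets was not measured. Their Dcn was 1.67, 3.04, 5.19 and 4.39 CPM, and the difference between macrophage-like and MP-like cells was 0.20 on the log2 scale (SE 0.31, edgeR adjusted p = 0.608). Over MP-like cells as a whole, Dcn in CPM was thus not detectably above that level, in a comparison not matched for depth. Median depth per library was 16757 to 20824 UMIs in macrophage-like and 20599 to 26585 in quiescent-like cells. It was 34243 to 40662 in committed-like and 38219 to 49943 in cycling-like cells. The part of depth in the Dcn differences between these classes was not tested. Among the MP-like classes, quiescent-like cells had 2.98, 6.58, 4.46 and 16.1 CPM, cycling-like cells 0.98, 1.74, 6.45 and 3.87 CPM and committed-like cells 0.770, 2.72, 2.38 and 3.48 CPM. Committed-like cells were lower than quiescent-like cells in each library, by -1.49 (SE 0.22, edgeR adjusted p = 0.000111), and the call held in 14 of 14 alternatives. The difference between cycling-like and quiescent-like cells was -1.18 (SE 0.30, edgeR adjusted p = 0.00227) and was not called without the library block (adjusted p = 0.0672). Macrophage-like cells differed from quiescent-like cells by -0.66 (SE 0.37, edgeR adjusted p = 0.144). The value of 16.1 in miR-501KO 2 stood above the 4.39 CPM of its macrophage-like cells, and 15 of the 608 quiescent-like cells held 145 of its 210 Dcn UMIs. Mural-like cells had 6.17, 11.2, 2.0 and 103 CPM. The value of 103 came from 40 cells of miR-501KO 2, of which 2 held 87 of the 90 Dcn UMIs. The call of mural-like over MP-like cells (2.22, SE 0.51, edgeR adjusted p = 0.00111) was lost without that library (0.98, adjusted p = 0.087). In Schwann-like cells the same library held 35 UMIs, all in 1 cell, and the difference from MP-like cells changed from 0.88 (SE 0.42, edgeR adjusted p = 0.0883) to -0.72 (adjusted p = 0.448) without it.

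Biglycan, which binds collagen and also signals through Toll-like receptors once released, was at 71.4 CPM or more in every class of each library. Its level was 2849, 3654, 3244 and 1983 CPM in fibroblast/tenocyte-like cells of Pax7Cre 1, Pax7Cre 2, miR-501KO 1 and miR-501KO 2. Mural-like cells had 1102, 867, 895 and 869 CPM, and Schwann-like cells 554, 772, 526 and 798 CPM. Quiescent-like cells had 513, 521, 465 and 479 CPM, cycling-like cells 394, 422, 346 and 361 CPM, and committed-like cells 198, 218, 185 and 170 CPM. Macrophage-like cells were lowest among the 7 classes with 114, 71.4, 128 and 119 CPM. The order of the 7 means was thus fibroblast/tenocyte-like, mural-like, Schwann-like, quiescent-like, cycling-like, committed-like and macrophage-like. Each step passed the edgeR test except that from Schwann-like to quiescent-like cells, which measured 0.08 on the log2 scale (adjusted p = 0.562). The fall from quiescent-like to cycling-like cells was small and tight at -0.32 (SE 0.04, edgeR adjusted p = 8.04e-06), and that to committed-like cells was -1.23 (SE 0.06, edgeR adjusted p = 1.63e-08). At equal depth 79.6% to 84.5% of quiescent-like cells held a Bgn UMI, against 18.0% to 33.8% of macrophage-like cells, whose median depth was 16757 to 20824 UMIs beside 20599 to 26585 in quiescent-like cells. Unthinned, the shares were 96.2% to 98.5% and 38.0% to 50.0%. Bgn in quiescent-like and cycling-like cells thus lay well above the macrophage-like level. Cluster 2, singled out after its values were seen, held 815, 892, 944 and 782 CPM, above the 3 named MP-like classes in each library. It was also above Schwann-like cells except in miR-501KO 2, and above mural-like cells in Pax7Cre 2 and miR-501KO 1. As an unnamed cluster it is part of neither the MP-like cells nor the order above.

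The promoters of Bgn, Aspn and Prelp are shown as examples of 3 patterns over the classes: well counted in every class, high in 2 classes, and highest in quiescent-like cells. They are taken from RefSeq on GRCm38.p6, from 250 bases before to 50 after the gene start, and are written 5′ to 3′ on the gene's strand. Capitals mark matches on either strand. The TATA box was searched as TATAAA. An E-box was searched as CANNTG, where N is any base. The GC box was searched as GGGCGG. The AP-1 motif TGANTCA was also searched, and so was the TEAD motif GGAATG, and neither occurred in these 3 sequences. The Bgn window is chrX:73483351-73483650 on the plus strand, the Aspn window chr13:49544193-49544492 on the plus strand and the Prelp window chr1:133921352-133921651 on the minus strand.
Bgn: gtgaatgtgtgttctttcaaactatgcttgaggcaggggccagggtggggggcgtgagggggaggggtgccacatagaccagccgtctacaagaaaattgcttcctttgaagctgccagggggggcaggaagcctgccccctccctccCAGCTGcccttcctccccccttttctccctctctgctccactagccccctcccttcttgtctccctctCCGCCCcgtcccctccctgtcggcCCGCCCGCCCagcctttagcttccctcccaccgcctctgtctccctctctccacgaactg
Aspn: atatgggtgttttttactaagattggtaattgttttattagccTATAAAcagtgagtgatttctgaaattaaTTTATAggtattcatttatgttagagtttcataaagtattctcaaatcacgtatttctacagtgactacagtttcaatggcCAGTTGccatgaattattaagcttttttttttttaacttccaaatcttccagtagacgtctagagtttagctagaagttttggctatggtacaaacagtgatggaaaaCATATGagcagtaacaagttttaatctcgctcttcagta
Prelp: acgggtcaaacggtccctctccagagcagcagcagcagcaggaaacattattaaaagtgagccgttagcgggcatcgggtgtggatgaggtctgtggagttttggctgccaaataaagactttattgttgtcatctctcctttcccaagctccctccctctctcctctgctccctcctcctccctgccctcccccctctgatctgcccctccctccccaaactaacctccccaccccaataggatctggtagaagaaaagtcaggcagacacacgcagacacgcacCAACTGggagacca
The Bgn window is rich in G and C (63.7%, against a median of 52.7% over 32851 promoters) and holds 3 matches to the GC box, 2 of which overlap each other just upstream of the start. The Aspn window is A and T rich (31.0% GC) and holds the TATA box letters once on each strand, far upstream of the start. Of the 6 members with an entry in the table, 2 held TATAAA (Aspn and Ogn), against 13.6% of all promoters, and 5 held an E-box, against 72.3%. GGGCGG was found in 35.7% of all promoters and among the members in Bgn. Such matches describe the letters and are not binding sites. Dcn and Lum were not among the entries. Several members lie side by side in the genome: Dcn and Lum are neighbours on chromosome 10, Aspn, Omd and Ogn follow each other on chromosome 13, and 2 genes separate Prelp and Fmod on chromosome 1. Dcn and Lum had a similar pattern over the classes, and the other neighbours differed: Aspn was high in mural-like cells and Omd and Ogn were not, and Prelp was highest in quiescent-like cells, where Fmod was under 1 CPM.

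Asporin, which binds collagen and TGFβ but carries no glycosaminoglycan chain, was high in 2 classes. Fibroblast/tenocyte-like cells had 1058, 1582, 1947 and 1394 CPM, and mural-like cells 585, 1139, 752 and 832 CPM. MP-like cells had 1.56, 1.35, 2.40 and 1.31 CPM. Mural-like cells exceeded MP-like cells by 8.87 on the log2 scale (SE 0.20, edgeR adjusted p = 2.95e-17), and this held in each of 14 alternatives (8.44 to 9.10). Fibroblast/tenocyte-like cells exceeded MP-like cells by 9.76 (SE 0.19, edgeR adjusted p = 5.34e-13). Although the values of the 2 high classes overlap between libraries, fibroblast/tenocyte-like cells were higher than mural-like cells of the same library in each of the 4 libraries, by 1.02 (SE 0.15, edgeR adjusted p = 0.000431). At equal depth Aspn was found in 81.8% to 91.8% of mural-like cells and in 0% to 2.83% of macrophage-like cells, and unthinned in 97.4% to 100% and 2.0% to 10.4%. In macrophage-like cells it stood at 1.34, 0.76, 5.59 and 1.65 CPM, and its difference from MP-like cells was 0.80 (SE 0.43, edgeR adjusted p = 0.132). No difference between quiescent-like and cycling-like cells was detectable (-0.08, SE 0.30, edgeR adjusted p = 0.827). With coarser clusters (Leiden resolution 0.3) Aspn was called lower in cycling-like than in quiescent-like cells (edgeR adjusted p = 0.00164). It was also called lower there in committed-like than in quiescent-like cells (edgeR adjusted p = 0.0130).

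Lumican, a keratan sulphate proteoglycan of cornea, skin and tendon, followed Dcn. It was counted at 543, 1292, 767 and 493 CPM in fibroblast/tenocyte-like cells and at 0.157, 0.515, 0.128 and 0.564 CPM in MP-like cells. The log2 fold change was 11.09 (SE 0.35, edgeR adjusted p = 2.51e-11), above those of the other 7 members. In mural-like cells Lum was at 0.325, 2.24, 1.5 and 44.6 CPM, and of the 39 UMIs behind 44.6 a single cell held 34. The call of mural-like over MP-like cells (4.40, SE 0.70, edgeR adjusted p = 3.33e-05) was lost when the 5% of cells with the highest doublet scores were removed (1.93, adjusted p = 0.0593). Schwann-like cells had 0, 6.15, 4.19 and 3.62 CPM, at most 5 UMIs in a library, and lay 3.04 above MP-like cells (SE 0.68, edgeR adjusted p = 0.000614). Each macrophage-like library held 2 Lum UMIs, and the difference from MP-like cells (1.99, SE 0.66, edgeR adjusted p = 0.0216) was not called without Pax7Cre 1 (adjusted p = 0.0801), Pax7Cre 2 (0.0598) or miR-501KO 1 (0.0846).

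Fibromodulin, which competes with lumican for a site on collagen and is best known from tendon, separated the fibroblast/tenocyte-like cells among themselves. Over the class it reached 255, 279, 172 and 84.6 CPM, against 1.29 CPM in the mean of cycling-like cells, and exceeded MP-like cells by 7.95 (SE 0.33, edgeR adjusted p = 3.95e-10). The class was then split by whether a cell, thinned to 5000 UMIs, held at least 1 UMI of a tendon cell marker. The markers were Tnmd, Scx, Mkx, Thbs4, Comp and Cilp2, and a positive cell need not hold each. In unthinned cells of at least 10000 UMIs, Thbs4 was found in 72.2% to 80.0% per library. Tnmd was found there in 27.8% to 50.0% and Scx in 16.7% to 55.6%. Positive and negative cells numbered 11 and 8 in Pax7Cre 1, 8 and 3 in Pax7Cre 2, 17 and 1 in miR-501KO 1, and 35 and 59 in miR-501KO 2. Fmod was at 491, 358, 179 and 167 CPM in positive cells and at 11.1, 42.4, 0 and 10.1 CPM in negative cells. Positive cells were higher in each library, by 4.29 (SE 0.47, edgeR adjusted p = 0.0117), and the call held in 16 of 16 alternatives. Fmod reached the filter on low counts through the positive cells, and with no filter it was called as well (4.32, edgeR adjusted p = 1.9e-13). Ogn was the other member called (2.82, SE 0.41, edgeR adjusted p = 0.0498), so 2 of the 6 members tested were called, where 0.208% of 4798 genes were. The Ogn call sat at the threshold and was lost in 9 of 16 alternatives, among them without Pax7Cre 2 (adjusted p = 0.202), miR-501KO 1 (0.0616) or miR-501KO 2 (0.0601). Dcn (1.21), Lum (1.35), Aspn (1.59) and Bgn (0.49) leaned the same way and did not pass (edgeR adjusted p = 0.339, 0.718, 0.347 and 0.521). Dcn passed without miR-501KO 1 (1.63, edgeR adjusted p = 0.0299) and Aspn without Pax7Cre 1 (2.22, edgeR adjusted p = 0.0161). The negative side of miR-501KO 1 was 1 cell, and the positive cells of miR-501KO 2 had a median of 9149 UMIs against 39317 to 46735 in the other 3 libraries.

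**Figure D2:**
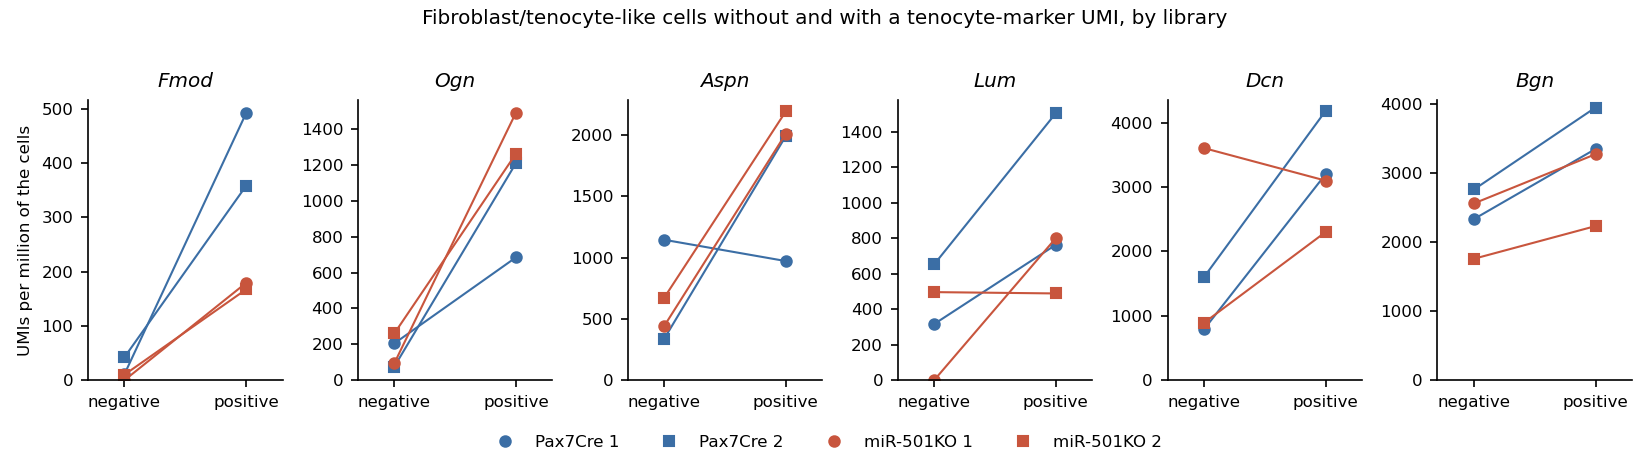
CPM in fibroblast/tenocyte-like cells without (negative) and with (positive) a UMI of 6 tendon cell markers, for the 6 SLRP genes tested. Each line joins the 2 groups of cells of 1 library. The lines of Fmod and Ogn rise in all 4 libraries, while those of Aspn, Lum and Dcn each fall slightly in 1 library.

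Among myogenic cells Fmod was rare but uneven. It had 0.254, 0.222, 0.638 and 0.230 CPM in quiescent-like cells and 1.09, 0.829, 2.76 and 0.493 CPM in cycling-like cells, a difference of 1.97 (SE 0.32, edgeR adjusted p = 4.14e-05). This direction turned with the clustering: at a Leiden resolution of 0.3 Fmod was lower in cycling-like cells (-1.16, edgeR adjusted p = 4.75e-06). The reference class was not the same there. Its largest cluster held 4209 rather than 2201 cells, and no cluster led by Spp1 and Ass1 was formed. Cluster 2 held 3.26, 3.6, 13.3 and 2.43 CPM of Fmod and gave 17.8% to 40.8% of the Fmod UMIs of a library. In mural-like cells Fmod was at 4.55, 6.72, 4.0 and 0 CPM, and the call over MP-like cells (2.10, SE 0.52, edgeR adjusted p = 0.00209) was lost without Pax7Cre 1 (1.58, adjusted p = 0.0701).

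PRELP, which links basement membranes to collagen through a basic N-terminal part, was the member of quiescent-like cells. It was counted at 42.0, 52.3, 61.2 and 65.1 CPM in quiescent-like cells of Pax7Cre 1, Pax7Cre 2, miR-501KO 1 and miR-501KO 2. Cycling-like cells had 5.99, 11.1, 9.04 and 7.14 CPM and committed-like cells 0.86, 1.40, 1.47 and 0.848 CPM. The 3 ranges do not overlap. Cycling-like cells were lower than quiescent-like cells by -2.68 on the log2 scale (SE 0.10, edgeR adjusted p = 6.73e-13) and committed-like cells by -5.44 (SE 0.12, edgeR adjusted p = 1.02e-10), and both calls held in 14 of 14 alternatives. At equal depth 17.6% to 26.3% of quiescent-like cells held a Prelp UMI, against 0% to 0.943% of macrophage-like cells. Unthinned, the shares were 42.6% to 51.8% and 1.25% to 6.36%. Fibroblast/tenocyte-like cells had 51.9, 12.6, 32.3 and 18.0 CPM, resting on 38, 6, 25 and 27 UMIs. Their difference from MP-like cells was 0.61 (SE 0.35, edgeR adjusted p = 0.184), which passed without miR-501KO 2 (0.93, adjusted p = 0.0401), and quiescent-like cells exceeded them by 0.99 (edgeR adjusted p = 0.0261). Mural-like, Schwann-like and macrophage-like cells were each lower than MP-like cells, by -1.79, -1.80 and -2.22 (edgeR adjusted p = 9.43e-05, 0.000153 and 0.000327).

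Prelp and Ogn are the members whose transcripts hold letters complementary to the seeds of the miRNA deleted in the knockout group. The mature miR-501 arms from RefSeq (GRCm38.p6, minus strand) are shown with the seed, bases 2 to 8, in capitals, at chrX:7241270-7241291 for the 3p arm and chrX:7241307-7241328 for the 5p arm.
mmu-miR-501-3p: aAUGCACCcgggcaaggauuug
mmu-miR-501-5p: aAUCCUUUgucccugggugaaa
In the longest 3′ untranslated region of each gene in the GENCODE annotation of GRCm38, matches were searched on the transcript strand to GGTGCAT (the complement of bases 2 to 8 of the 3p arm) and to GTGCATA (the complement of bases 2 to 7 before an A). Prelp, with 2302 bases, held 3 matches within bases 2128 to 2157, capitals marking them.
Prelp: GGTGCATgtgtGTGCATAtgtgtGTGCATA
The other 7 members, with 435 to 1652 bases, held none. Either of these matches occurred in 11.2% of 21037 genes, and in 26.8% of the 5379 genes with at least 2000 bases, so a long region such as that of Prelp often holds one. The study states that activated MPs do not express the 5p arm and therefore refers to the 3p arm. For the 5p arm the letters searched were AAAGGAT (the complement of bases 2 to 8) and AAGGATA (the complement of bases 2 to 7 before an A). Ogn, with 1518 bases, held both as 1 overlapping run at bases 683 to 690, shown in capitals within bases 672 to 701.
Ogn: acccatttctcAAAGGATAataaggttcct
The other 7 members held no 5p match. Either 5p match occurred in 15.6% of the 21037 genes and in 32.8% of the 7370 genes with at least 1518 bases. A match is a description of the sequence and no evidence of targeting. Prelp over all cells was at 10.1 and 16.0 CPM in the Pax7Cre libraries and at 16.5 and 16.3 CPM in the miR-501KO libraries. In quiescent-like cells both miR-501KO values lay above both Pax7Cre values, which was also true of 21.6% of the 12552 genes compared there. Bgn was lower in both miR-501KO libraries in that class, as were 8.66% of the genes.

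Osteomodulin, known from bone, was the rarest member. Fibroblast/tenocyte-like cells had 12.3, 4.20, 6.46 and 2.0 CPM, from 9, 2, 5 and 3 UMIs in 1, 1, 5 and 3 cells, and cycling-like cells 0.601, 1.26, 1.15 and 1.02 CPM. It was higher in fibroblast/tenocyte-like than in MP-like cells by 2.92 (SE 0.66, edgeR adjusted p = 0.00282), and the call held in 15 of 15 alternatives, although 1 cell of Pax7Cre 1 held 9 of the 19 UMIs of the class. The difference between cycling-like and quiescent-like cells (0.87, SE 0.32, edgeR adjusted p = 0.0231) did not pass without Pax7Cre 1 (adjusted p = 0.0542), Pax7Cre 2 (0.0539) or miR-501KO 1 (0.116). Macrophage-like cells held no Omd UMI among 8632116 UMIs. Taking 3 UMIs over the class as the floor, MP-like cells were at least 2.03-fold and fibroblast/tenocyte-like cells at least 15.7-fold higher.

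Osteoglycin, the class III member, was high in fibroblast/tenocyte-like cells and also present through the myogenic classes, but not evenly. Fibroblast/tenocyte-like cells had 449, 929, 1435 and 736 CPM and exceeded MP-like cells by 4.02 (SE 0.21, edgeR adjusted p = 3.18e-09). Quiescent-like cells had 78.9, 89.1, 88.7 and 85.4 CPM, committed-like cells 74.1, 57.2, 75.7 and 66.2 CPM, and cycling-like cells 21.5, 18.6, 25 and 23.5 CPM. Ogn was thus low in cycling cells and not in the other 2 myogenic classes. Cycling-like cells were lower than quiescent-like cells by -1.89 (SE 0.07, edgeR adjusted p = 4.5e-13) and committed-like cells exceeded cycling-like cells by 1.73 (edgeR adjusted p = 1.09e-09). Committed-like and quiescent-like cells differed by -0.19 (SE 0.08, edgeR adjusted p = 0.0578), which passed without Pax7Cre 1 (-0.26, adjusted p = 0.0278) or miR-501KO 1 (-0.23, adjusted p = 0.0498). This order differs from that of Prelp and Bgn, which were lowest of the 3 in committed-like cells. Among committed-like cells, cluster 10, led by Myh3 and Myh8, held 135, 100, 109 and 117 CPM of Ogn and 54.8, 43.7, 36.4 and 24.4 CPM of Bgn. Cluster 3, led by Myog, held 51.1, 43.3, 54.4 and 48.2 CPM of Ogn and 252, 274, 281 and 221 CPM of Bgn. These clusters were singled out after their values were seen, and their difference was not tested. Macrophage-like cells had 8.02, 9.12, 7.59 and 13.7 CPM of Ogn, lower than MP-like cells by -2.07 (SE 0.16, edgeR adjusted p = 4.42e-07), mural-like cells by -1.77 (SE 0.22, edgeR adjusted p = 1.54e-06) and Schwann-like cells by -2.52 (SE 0.21, edgeR adjusted p = 3.33e-10).

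**Figure D3:**
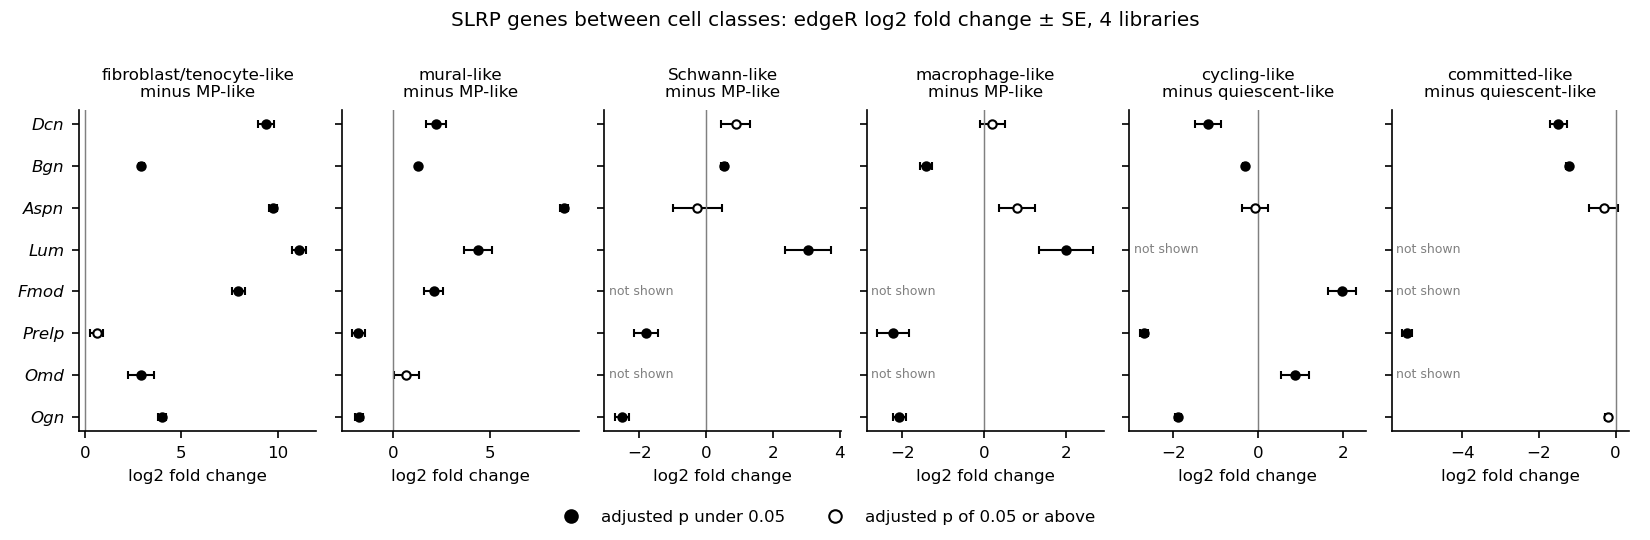
edgeR log2 fold change (x axis) of the 8 SLRP genes in 6 comparisons between cell classes, with bars of 1 SE derived from the edgeR test of 4 libraries. Filled points passed an adjusted p of 0.05, and genes not tested or with at most 3 UMIs in the first class are not shown. Of the members shown against quiescent-like cells, Fmod and Omd lie right of 0 in cycling-like cells and Prelp lies farthest left in both panels.

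Counted over the comparisons, 7 of 8 members tested were called in mural-like against MP-like cells, 5 higher and 2 lower, where 54.7% of all genes tested were called. In Schwann-like cells 4 of 8 were called, where 50.0% of all genes were, and in macrophage-like cells 5 of 7, where 60.8% were. Cycling-like against quiescent-like cells gave 6 of 7, 2 higher and 4 lower, where 71.8% of all genes were called. Committed-like against quiescent-like cells gave 3 of 5, each lower, where 71.5% were called and 36.6% were lower. Lum and Fmod against MP-like cells, and Fmod and Omd against quiescent-like cells, did not reach the filter in each reference sum, and their calls as higher were also made with no filter. With 5 to 8 members tested in each of these 5 comparisons, the counts describe the members beside a high share of all genes called.

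The source of each member's UMIs shows how much a small class could set the level over all cells. Fibroblast/tenocyte-like cells made up 0.552%, 0.601%, 0.635% and 4.0% of the cells of Pax7Cre 1, Pax7Cre 2, miR-501KO 1 and miR-501KO 2. They gave 80.7% to 87.5% of the Dcn UMIs and 90.4% to 93.8% of the Lum UMIs. Of the Aspn UMIs, fibroblast/tenocyte-like cells gave 27.3%, 54.3%, 44.0% and 70.2% and mural-like cells 63.4%, 36.6%, 43.8% and 24.4%. Prelp UMIs came mostly from quiescent-like cells (55.0% to 70.4%). Omd UMIs came from cycling-like cells (36.0% to 47.8%) more than from any other single source in each library. The Ogn UMIs were spread, with 28.3% to 38.1% from cluster 2. In fibroblast/tenocyte-like cells thinned to 5000 UMIs a median of 4, 5, 5 and 3 members was found per cell, against 2 in mural-like, 1 in MP-like classes and Schwann-like and 0 in macrophage-like cells.

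**Figure D4:**
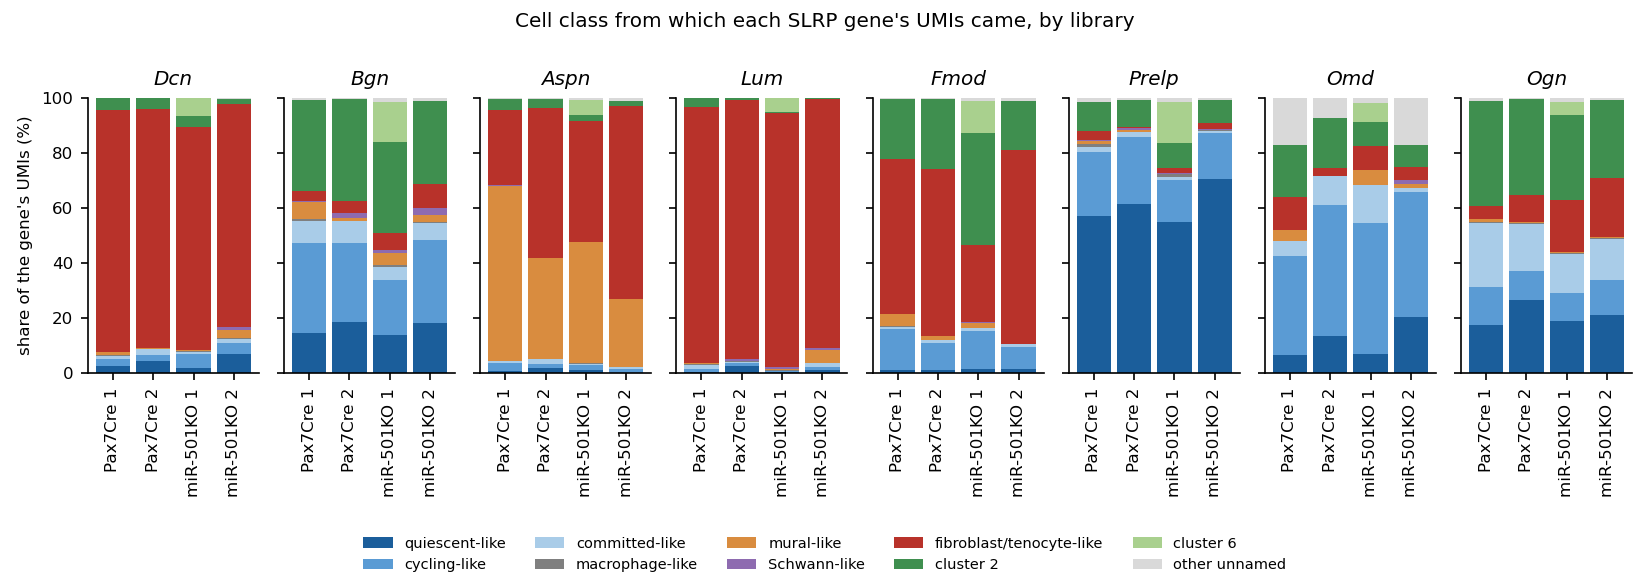
Share of each SLRP gene's UMIs (percent, y axis) that came from each cell class, as stacked bars, 1 bar per library. Dcn and Lum came mostly from fibroblast/tenocyte-like cells in the 4 libraries, Prelp mostly from quiescent-like cells, and Aspn from mural-like and fibroblast/tenocyte-like cells in shares that differ between libraries.

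Depth within the fibroblast/tenocyte-like class differed between libraries. In miR-501KO 2 the 67 fibroblast/tenocyte-like cells under 10000 UMIs held 464 CPM of Dcn, against 2067 CPM in the 27 deeper cells. Aspn was at 361 against 1873 CPM, Bgn at 820 against 2522 CPM, Lum at 60.9 against 693 CPM and Ogn at 256 against 958 CPM. Their own fibroblast markers were lower too: Col1a1 was at 5414 against 13165 CPM, and Pdgfra was found in 5.97% against 66.7% of cells. Myog, a myogenic marker, was at 261 against 41.9 CPM. With the shallow cells of all libraries left out, the calls of the members between fibroblast/tenocyte-like and MP-like cells did not change.

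Between the genotypes the values are a description, because this contrast chose the family. Over all cells Aspn was at 24.9 and 19.3 CPM in Pax7Cre and at 40.4 and 40.4 CPM in miR-501KO libraries, a log2 fold change of 0.85. Dcn was at 14.8 and 27.0 against 35.2 and 39.4 CPM, a log2 fold change of 0.83. Ogn was at 61.6 and 62.8 against 68.7 and 71.2 CPM. With Prelp, 4 of the 8 members were higher in both miR-501KO libraries than in both Pax7Cre libraries, where 15.4% of 15725 genes were. In sums over all cells, more cells of a type and more RNA per cell cannot be told apart. Within fibroblast/tenocyte-like cells the Dcn values of the genotypes overlap, with a log2 fold change of -0.30 (SE 0.40), and so do those of Aspn, with 0.29 (SE 0.35). Of the 7 members compared there, Fmod alone stood apart. It was lower in both miR-501KO libraries (-1.13, SE 0.36), as were 11.7% of 7463 genes. In mural-like cells Aspn overlaps as well, with -0.16 (SE 0.27). With fibroblast/tenocyte-like cells left out, Aspn was at 18.2 and 8.88 in Pax7Cre and 22.8 and 12.3 CPM in miR-501KO libraries, so the groups overlapped. Without mural-like cells too, it was at 2.39 and 1.78 against 5.08 and 2.24 CPM. Ogn without fibroblast/tenocyte-like cells no longer stood higher in both miR-501KO libraries. Dcn without them was at 1.85 and 3.6 against 6.82 and 7.77 CPM, still apart. In that set Dcn, Prelp and Lum were higher in both miR-501KO libraries, as were 14.9% of 15677 genes. Bgn was lower in both, as were 9.97% of these genes.

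**Figure D5:**
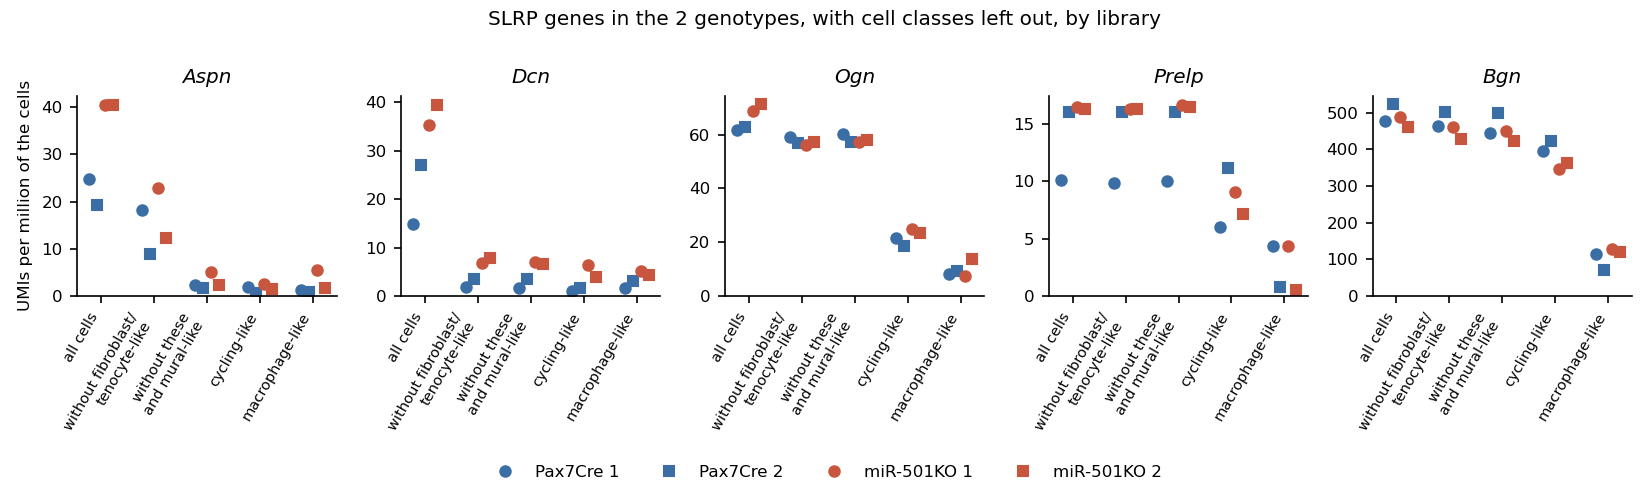
CPM of 5 SLRP genes in each library over all cells, with fibroblast/tenocyte-like and then also mural-like cells left out, and in cycling-like and macrophage-like cells. Blue marks are Pax7Cre and red marks miR-501KO, circles replicate 1 and squares replicate 2. Aspn and Dcn drop by most of their level once the fibroblast/tenocyte-like cells, and for Aspn the mural-like cells, are left out.

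In cycling-like cells Dcn rested on 44, 44, 152 and 110 UMIs in 954, 446, 556 and 588 cells, and its log2 fold change was 1.95. Of these, cells with at least 5 Dcn UMIs held 0%, 27.3%, 55.9% and 49.1%, from 0, 1, 7 and 2 cells. The class includes cluster 16 with 60 cells, 57 of them from miR-501KO 1, at a median of 10416 UMIs. The other cycling-like clusters had medians of 36526 to 47924 UMIs. The part of cluster 16 in the Dcn difference was not tested. Macrophage-like cells of the same libraries had the same order of the genotypes, with 1.67 and 3.04 CPM in Pax7Cre and 5.19 and 4.39 CPM in miR-501KO libraries. The part of free RNA in this difference was not tested. In cycling-like cells Dcn and Ogn were the members higher in both miR-501KO libraries, where 12.0% of 13411 genes were, and Bgn was lower in both, where 10.5% were. Over all genes edgeR called 0 of 15725 between the genotypes in all cells, with 440 at an unadjusted p under 0.05 and 13 called by DESeq2. In cycling-like cells edgeR called 0 of 13411, with 319 at an unadjusted p under 0.05, 2 called by DESeq2 and 34 with the run as a block.

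Over the 28 sums of class and library, the genes most like each member in log2(CPM + 1) were listed by Pearson's r among 10968 genes, as a description without a test, since sums of 1 library share its depth and its free RNA. Dcn was followed most closely by Pamr1 (r = 0.940), Angptl1 (0.935) and Tnmd (0.931), and Lum by Pamr1 (0.937), Crispld1 (0.936) and Mfap5 (0.936). Tnmd, Mfap5 and Cilp belong to the markers that named the fibroblast/tenocyte-like class. Aspn had Meox2 (r = 0.982), Shox2 (0.981) and Ebf2 (0.976), which are transcription factors. Fmod had Itga11 (r = 0.985), a collagen-binding integrin chain, Podn (0.968), a related leucine-rich proteoglycan, and Tnmd (0.961). Bgn had Copz2 (r = 0.973), Fkbp9 (0.973) and Ikbip (0.972). Ogn had Mfap4 (r = 0.886), Cpxm1 (0.880) and Cilp (0.868), and Prelp had Slc39a14 (0.894), Chodl (0.878) and Ccn5 (0.846). Chodl is one of the markers of quiescent-like cells. Between members, Dcn and Lum had r = 0.956, and Dcn and Prelp 0.407. Omd did not reach 10 CPM in the mean of any class and was left out.

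The machinery around the family was counted from lists of related genes in fibroblast/tenocyte-like against MP-like cells, where 18.0% of all genes were higher and 22.4% lower. Of 10 other SLRP-like genes 7 were tested and 6 were higher. Podn (8.35, SE 0.49) and Ecm2 (4.62, SE 0.18) were among them, and Kera, which encodes the corneal keratocan, had a mean of 87.7 CPM and no UMI in MP-like cells. Of 14 fibrillar and associated collagens 13 were tested and 13 were higher, with Col11a1 at 10.56 (SE 0.22), Col14a1 at 5.33 (SE 0.33) and Col1a1, itself a marker of the class, at 5.0 (SE 0.14). Col1a2, and Pdgfra among the receptors below, are also markers that named the class. The naming could thus fix the direction of Col1a1, Col1a2 and Pdgfra, which are included in the counts. The 22 genes for chondroitin, dermatan and keratan sulphate synthesis were all tested and 16 were higher, among them Xylt1 (5.50, SE 0.52), which starts the chains, and the sulphotransferases Chst1 (3.32, SE 0.62) and Chst5 (8.60, SE 0.72). Of 15 genes for collagen crosslinking and maturation 14 were tested and 14 were higher, with P4ha3 at 6.90 (SE 0.28) and Loxl3 at 4.49 (SE 0.20). Of 13 proteases 11 were tested and 8 were higher, with the collagenase Mmp13 at 13.16 (SE 0.29) and Mmp2 at 4.47 (SE 0.23). Growth factors and receptors bound by SLRPs were mixed: of 23 listed, 19 were tested, 10 were higher and 2 lower. Ccn2 (5.20, SE 0.38) and the endocytic receptor Lrp1 (2.30, SE 0.17) were higher, while Met (-2.71, SE 0.34), which decorin binds, and Igf1r (-0.80, SE 0.15) were lower. Kera, Podn, Col11a1, Col11a2, Xylt1, Chst1, Chst5, Mmp13, Pdgfra and P4ha3 did not reach the filter on low counts in each MP-like sum and entered through the fibroblast/tenocyte-like sums, which fixes their direction. Of the genes that did reach it in MP-like cells, 4 of 5 SLRP-like genes, 11 of 11 collagens, 13 of 18 genes for chain synthesis, 13 of 13 for crosslinking, 7 of 10 proteases and 9 of 18 growth factors and receptors were higher, where 16.4% of 12907 genes were. Over the genes tested, the list medians ran from 0.90 for growth factors and receptors to 3.69 for collagens on the log2 scale, beside -0.15 over all genes.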

How the data were processed

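The authors deposited raw UMI counts per gene and barcode for 4 droplet libraries, made with Cell Ranger on GRCm39 per the labels. The file headers and the study's methods give different Cell Ranger versions. Counts were not normalized or corrected for free RNA. Per the labels, doublets were excluded in the sort, and Scrublet scores were used in an alternative. The study's cell filter (5000 UMIs, 1000 genes) was applied and left more cells than the study kept.

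Cells were clustered in scanpy 1.11.5 without the 8 members (2000 variable genes, 30 components, 15 neighbours, Leiden resolution 0.5, leidenalg 0.10.2). Clusters were named from marker lists where at least 3 listed markers and 25% of the list were raised 1.5-fold. UMI sums per library and class were tested in edgeR 4.0.16 (R 4.3.3; TMM, filterByExpr, quasi-likelihood), with the library as a block between classes and no block between genotypes. The Benjamini-Hochberg adjustment ran over all genes tested, at a threshold of 0.05. Each SE is the size of the log2 fold change divided by the square root of the F value of the edgeR test. It is not a spread computed directly from the library values. Of the 8 members, 5 to 8 passed the filter on low counts in each comparison, 6 in that of tendon-marker cells. The fits were tested on simulated data first, where false calls made up more of the called genes than the threshold allows, so adjusted p-values just under 0.05 are less firm.

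The members and all lists were chosen with earlier results of these data known. The members were named in every class. For each member with a mean of at least 10 CPM in a class, the 3 genes with the most similar pattern were named, and from each related list up to 3 genes per direction with the largest change in the same direction in 4 libraries.

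The labels place libraries of the same number in 1 run. Their run 1 minus run 2 differences correlated between the groups at 0.226 in all cells (15725 genes) and at -0.00213 in cycling-like cells (13411 genes). Libraries of 1 group differed beyond sampling noise. Shares of cells were compared after thinning to 5000 UMIs. Promoter, miRNA and 3′ untranslated sequences came from GRCm38 (RefSeq and GENCODE), another build than that of the counts, so no coordinates were carried between them. Counting intervals and floors cover counting error only. Alternatives were other size factors, DESeq2 1.42.0, no filter, no or another block, each library left out, other cell filters and clustering resolutions. Leaving out fibroblast/tenocyte-like cells under 10000 UMIs and TMM scaling of the genotype levels were added after the data were seen.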

Additional observations from a re-analysis of the deposited data

Results flagged for a closer look

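The direction between the genotypes differed between cell classes for Bgn and Ogn, because every miR-501KO library lay on one side of both Pax7Cre libraries in one class and on the other side in another. The log2 ratio of mean CPM of Bgn, miR-501KO over Pax7Cre, was -0.13 in quiescent-like cells and -0.21 in cycling-like cells, and 0.42 in macrophage-like cells. That of Ogn was 0.27 in cycling-like and -0.57 in Schwann-like cells. These differences between classes were not tested, and the Schwann-like values of Ogn rest on 7 to 10 UMIs per library. The macrophage-like values of Bgn rest on few cells: in Pax7Cre 1, Pax7Cre 2, miR-501KO 1 and miR-501KO 2, 17, 4, 12 and 14 cells held 85.6%, 74.5%, 87.2% and 80.6% of its UMIs. Such an order of the libraries was common among all genes. Both miR-501KO libraries were lower than both Pax7Cre libraries for 8.66% of genes in the quiescent-like class, for 10.5% in the cycling-like class and for 12.2% in the Schwann-like class. Both were higher for 12.0% in the cycling-like class and for 14.2% in the macrophage-like class.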

How the results depend on the processing

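Each comparison between 2 classes or genotypes rests on 4 libraries of pooled mice, and the fibroblast/tenocyte-like class on 11 to 94 cells per library. Members with a few UMIs in a class (Omd, Lum and Fmod outside fibroblast/tenocyte-like cells) have wide errors, and smaller differences were not detectable at this depth. The alternatives were compared for single members and also for the named genes of the related lists. Of these values, 1150 kept direction and side of the threshold, 16 passed newly, 32 no longer passed and 10 changed direction. Every change was in a member. What caused these changes was not tested.

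The number of members called in macrophage-like against MP-like cells (5) was 3 to 4 with 1 library left out. In committed-like against quiescent-like cells (3) it was 6 at Leiden resolution 0.3. For tendon-marker-positive against negative cells (2) it was 5 with no filter on low counts, 1 to 3 with 1 library left out, and 1 with RLE size factors, without the highest Scrublet scores, with a minimum of 2000 UMIs, at Leiden resolution 0.3, with cells under 10000 UMIs left out and with a gate of 2 UMIs. Genes called between genotypes over all cells (0) were 13 with DESeq2 and 0 to 3 with 1 library left out. In cycling-like cells (0) they were 2 with DESeq2, 51 with no filter, 1 without the highest Scrublet scores, 2 with a minimum of 2000 UMIs and 0 to 44 with 1 library left out. With the run as a replicate block 34 were called there and 0 over all cells. Without the library as a replicate block, 4 members rather than 6 were called in cycling-like against quiescent-like cells and 4 rather than 5 in macrophage-like against MP-like cells, and no other class comparison changed its number of members called.

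Directions that turned: Dcn in Schwann-like against MP-like cells, -0.72 without miR-501KO 2 (range with 1 library left out -0.72 to 1.24). Aspn in that comparison was 0.097 without Pax7Cre 2 and 0.014 without miR-501KO 1 (range -0.86 to 0.097), and 0.019 without the highest Scrublet scores. Aspn in cycling-like against quiescent-like cells was 0.31 without Pax7Cre 2, 0.065 without miR-501KO 1 (range -0.33 to 0.31) and 0.15 at Leiden resolution 1.0. Aspn in committed-like against quiescent-like cells was 0.15 without miR-501KO 1 and 0.038 at resolution 1.0. Fmod in cycling-like against quiescent-like cells was -1.16 at resolution 0.3. The number of members higher in both miR-501KO libraries over all cells was 4, with 3 to 6 under 12 alternatives.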
